A study of Mus musculus and Homo sapiens with 15 samples.

Results

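The data described here are the 6 of the series' 15 RNA sequencing samples that compare regressing with progressing tumour tissue in the thymus of mice given arsenic trioxide (ATO). Membership was set by the sample labels alone: 3 libraries came from mice labelled as regressing and 3 from mice labelled as in tumour progression. All came from mice homozygous for the p53 R282W mutation (genotype W/W) that carried T-cell lymphomas, received ATO and were sampled on day 150 after birth. The mutation and the ATO treatment are thus shared by both groups, and the 3 W/W mice given water are not compared here. What differs between the groups is the outcome itself, so the groups were formed after treatment and not by allocation. The labels do not name litters, doses, treatment lengths or sequencing batches, and they do not say outright that replicates were separate animals. P-values therefore measure only the spread between libraries. For the tests of single genes that spread was estimated with the water libraries included. Neither ATO alone nor regression in untreated mice can be read from a comparison in which every mouse received the drug.

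The thymus is the organ in which T cells form: immature thymocytes rearrange their T-cell receptor genes under the instruction of a network of epithelial cells, and the survivors of selection leave as mature T cells. Cortical epithelium drives lineage commitment and positive selection, while medullary epithelium removes self-reactive cells. A T-cell lymphoma of the thymus descends from one or a few thymocytes, so it carries few receptor rearrangements and can displace the stroma and the polyclonal thymocytes around it. Arsenic trioxide binds cysteines in proteins and is studied as a drug that stabilizes the fold of certain p53 mutants.

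Total counts ranged from 12800367 to 15263147 per library, and T-lineage genes were abundant in every library: Rag1, a subunit of the recombinase that cuts receptor genes, was at 3297, 3393 and 1506 CPM in the regressing and 591, 258 and 1386 CPM in the progressing libraries. CPM is the count scaled to a common TMM-adjusted library size, in the usual unit. The first principal component held 57.4% of the variance and separated the groups, and the second, with 19.03%, spread the progressing libraries. Correlations of log2 expression over 18119 genes, which are not independent replicates, were 0.941 to 0.980 among regressing libraries, 0.885 to 0.911 among progressing libraries and 0.791 to 0.850 between the groups. Regressing replicates 1 and 2 were the most alike pair, with a mean chi-square per gene of 13.2 against 114 to 178 in the other pairs within a group, and were kept as separate samples. Mitochondrial genes took 8.48% of counts in regressing replicate 3 and 8.83% in progressing replicate 2, against 2.08% to 4.86% in the other 4.

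With edgeR's quasi-likelihood test, 2289 of 18119 genes (12.6%) passed an adjusted p of 0.05, of which 1169 (6.45%) were higher and 1120 (6.18%) lower in regressing tissue. In 3880 genes (21.4%) all regressing libraries lay above all progressing libraries, and in 3730 (20.6%) all lay below. Single libraries decided much of the count of calls. Without regressing replicate 1, 2 and 3 it was 177 (0.922%), 312 (1.62%) and 549 (2.86%). Of all genes tested, 0.777%, 1.32% and 2.05% were then higher and 0.146%, 0.302% and 0.814% lower. Without progressing replicate 1, 2 and 3 the count was 2000 (10.5%), 1362 (7.12%) and 531 (2.8%), with 4.44%, 4.04% and 1.32% of genes higher and 6.05%, 3.08% and 1.48% lower. Only 160 calls (0.883%), 134 of rises (0.74%) and 26 of falls (0.143%), held in all 6 of these fits, and below a call is said to be held in a number of 6 fits in this sense. Without both libraries of high mitochondrial share, regressing replicate 3 and progressing replicate 2, 178 genes (0.943%) were called, 0.694% higher and 0.249% lower. The median log2 fold change of all tested genes was -0.07, and in the plot of the gene lists the members of 31 lists are set against it.

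**Figure D1:**
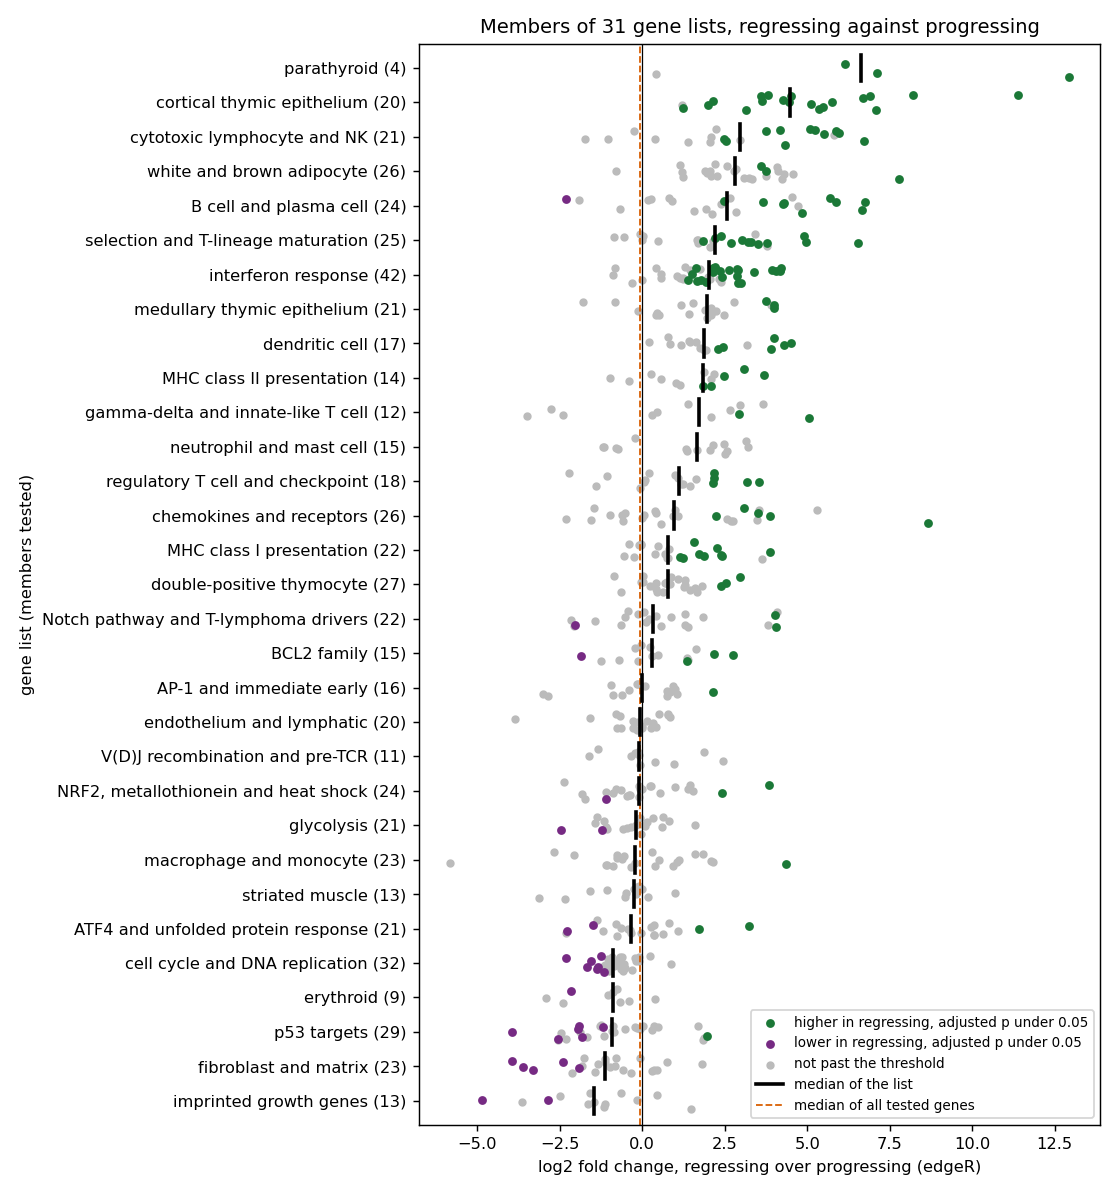
Log2 fold change of regressing over progressing tissue (x axis) for the tested members of 31 gene lists (y axis, number tested in parentheses). Green and purple points passed an adjusted p of 0.05, black bars are list medians and the dashed line is the median of all tested genes, -0.07. Lists of cortical epithelium (median 4.49) lie far to the right and matrix genes (median -1.11) to the left.

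The T-cell receptor transcripts of the groups differed in evenness. Trbv segments encode the variable part of the receptor beta chain, and each rearranged allele uses 1 of them. In regressing libraries the leading segment was Trbv13-2 (GRCm38 chr6:41121396-41121832), which held 13.8%, 14.0% and 9.99% of Trbv counts. In progressing replicates 1 and 3 it was Trbv31 (chr6:41557691-41558452), with 94.3% (95% Wilson interval 93.7% to 94.9%) and 78.2% (76.4% to 80.0%). Progressing replicate 2 was led by Trbv20 (chr6:41188273-41188977), with 85.8% (84.7% to 86.8%). Each progressing library was thus taken up largely by 1 segment, and that segment was not the same in all 3. The intervals cover counting error only.

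The effective number of Trbv segments, the inverse Simpson index of segment counts, was 15.3, 15.3 and 17.1 in regressing libraries and 1.12, 1.36 and 1.61 in progressing libraries. The means were 15.9 ± 1.06 and 1.36 ± 0.243 (SD, n = 3 each), and the groups did not overlap. An exact two-sided permutation test gave p = 0.1, the smallest value that 3 against 3 allows. In every regressing library 22 of the 35 segments in the table reached 10 counts, against 10, 15 and 8 in progressing replicates 1, 2 and 3. Total Trbv counts were 8569, 8384 and 5607 in regressing and 5042, 4103 and 2096 in progressing libraries. Segments of a family share sequence, so counts of single segments are uncertain.

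Segments of the alpha chain (Trav) gave a like order at lower depth. Their effective number was 42.2, 46.3 and 44.1 in regressing and 19.1, 18.5 and 10.7 in progressing libraries (exact two-sided permutation test, p = 0.1, the smallest possible). Only 674, 307 and 102 Trav counts lay behind the progressing values, against 1208, 1042 and 723 in regressing libraries. The leading Trav segment took 10.2%, 13.03% and 17.6% of these counts in progressing replicates 1, 2 and 3, so no single alpha segment held a share like that of the leading beta segment. Trav segments of a family share sequence too, so counts of 1 rearrangement may be split among them and these shares are uncertain. Trdc, the constant region of the delta chain, stood at 124, 148 and 136 CPM in regressing libraries, and at 51.7 CPM in progressing replicate 1, 0.254 CPM in replicate 2 and 0 in replicate 3 (adjusted p = 0.225, edgeR). Trdc overlaps exons of another annotated gene, so its count is uncertain.

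**Figure D2:**
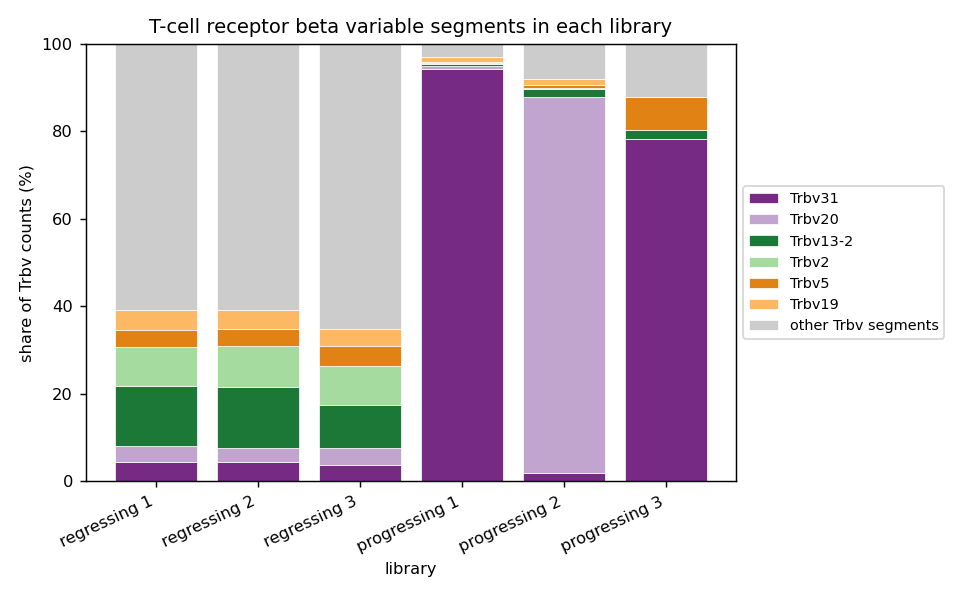
Share of Trbv counts (y axis, %) taken by 6 named segments and by all others in each of the 6 libraries (x axis). Trbv31 fills 94.3% and 78.2% of the bars of progressing replicates 1 and 3 and Trbv20 fills 85.8% in progressing replicate 2, while the highest share of a segment in a regressing library is 14.0%.

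Genes of cortical thymic epithelium had the highest share of rises among the 31 lists. Of 20 tested, 19 rose and none fell (95% called, against 12.6% of all genes), and the median log2 fold change was 4.49 against -0.07 over all genes. All 20 were higher in every regressing library than in any progressing library (against 21.4% of all genes). In bulk tissue, fewer cells of a type and less RNA per cell cannot be told apart. Psmb11, the catalytic subunit of the thymus-specific proteasome that makes peptides for positive selection, was at 67.9, 71.4 and 56.1 CPM in regressing and 0.185, 1.52 and 0.221 CPM in progressing libraries. The groups were far apart, with a log2 fold change of 6.69 (SE 0.85, adjusted p = 0.00647, edgeR) and a call held in 6 of 6 fits. Foxn1, the master transcription factor of thymic epithelium, was at 14.2, 12.9 and 9.69 CPM against 0.185, 0.338 and 0.294 CPM, a log2 fold change of 5.47 (SE 1.18, adjusted p = 0.0205, call held in 2 of 6).

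Transcription factors that shape the epithelium from the pharyngeal pouch onward rose as Foxn1 did. Pax1 was at 56.2, 57.3 and 46.4 CPM in regressing and 0.555, 0.592 and 0 CPM in progressing libraries, and Isl1 at 31.7, 26.3 and 16.5 CPM against 0.123, 0.423 and 0.0735 CPM. Trp63, which maintains epithelial progenitors, was at 71.7, 67.5 and 58.95 CPM against 0.987, 1.099 and 1.54 CPM. All 3 rose, with log2 fold changes of 7.09, 6.90 and 5.76 and calls held in all 6 fits. Tbata, a gene named for its expression in thymus, brain and testis, was at 435, 418 and 298 CPM against 0.308, 3.55 and 0.147 CPM (log2 fold change 8.21, SE 1.25). Within the progressing group its highest value came from replicate 2, as did that of Psmb11. Trp63 was named after its values were seen. Pax1 shares exon positions with another gene, which makes its count uncertain.

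Among the signals that cortical epithelium sends to thymocytes, Cxcl12, a chemokine that retains precursors in the cortex, was at 291, 268 and 249 CPM in regressing and 18.4, 24.1 and 48.4 CPM in progressing libraries. It rose by a log2 fold change of 3.15 (SE 0.41, adjusted p = 0.00733, call held in 6 of 6). Kitl, the ligand of the receptor Kit, rose with a log2 fold change of 2.14 (call held in 1 of 6). Ctsl, the protease that cuts the invariant chain in the cortex, and Ly75, an endocytic receptor of cortical epithelium and dendritic cells, rose by log2 fold changes of 1.98 and 1.23 (held in 1 and 2 of 6). Without regressing replicate 1, 2 and 3 the list held 11, 13 and 16 rises, and without progressing replicate 1, 2 and 3 it held 18, 17 and 12. Without both libraries of high mitochondrial share 7 were called, where 0.694% of all genes were. Ctsl and Ly75 overlap exons of other annotated genes, and counts there are uncertain because use of strand is not stated.

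**Figure D3:**
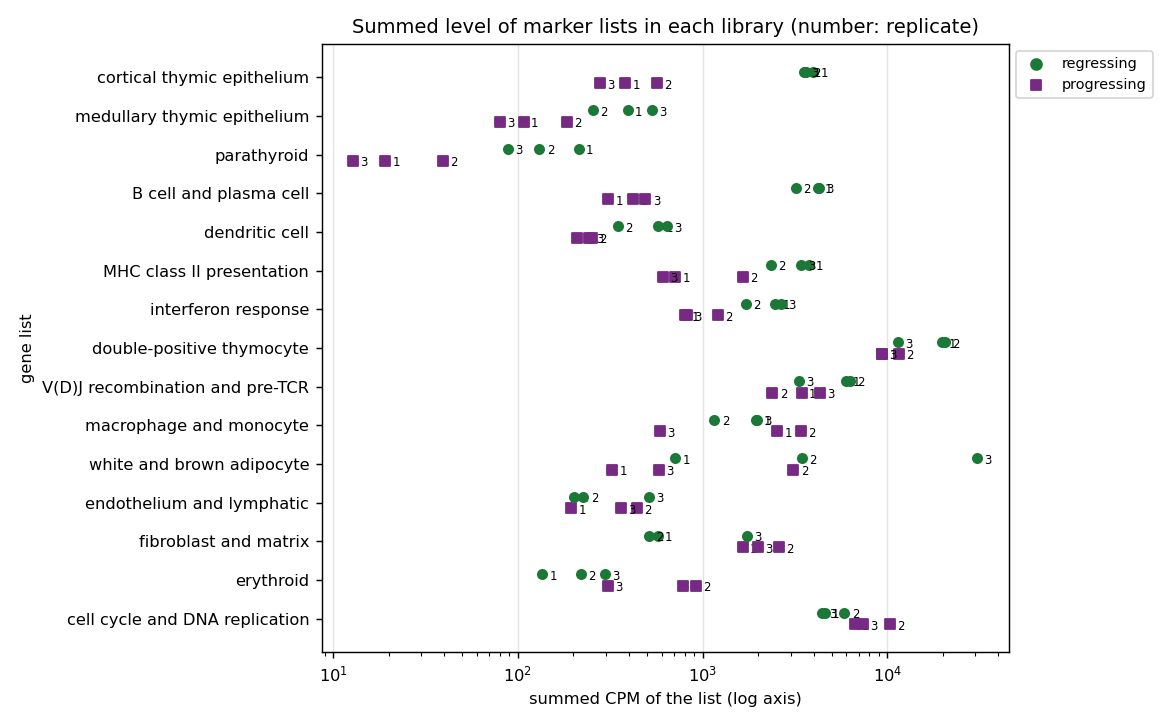
Summed CPM of 15 marker lists (y axis) in each library (x axis, log scale; circles regressing, squares progressing, numbers give the replicate). Cortical epithelium separates the groups (3556 to 3986 against 277 to 569 CPM), whereas the adipocyte list runs from 323 CPM in progressing replicate 1 to 30774 CPM in regressing replicate 3.

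Fewer genes of medullary epithelium passed the test. Of 21 tested members 3 rose (14.3%, where 12.6% of all genes were called and 6.45% were higher), none fell and the median was 1.96. Of these members 11 were higher in every regressing library than in any progressing library (against 21.4% of all genes). Krt5, a keratin of basal medullary cells, was at 98.2, 51.2 and 128 CPM against 5.92, 9.38 and 2.06 CPM and rose by a log2 fold change of 4.0 (SE 0.91, adjusted p = 0.0241, edgeR, call held in 1 of 6). Spib and Pou2f3, factors of epithelial differentiation and of tuft cells, rose by log2 fold changes of 3.75 and 3.98 (held in 5 and 1 of 6). Spib is also used by B cells and plasmacytoid dendritic cells. Aire, which drives expression of tissue antigens in the medulla, was at 19.1, 9.32 and 17.3 CPM against 2.28, 5.66 and 0.221 CPM without passing the test (log2 fold change 2.49, adjusted p = 0.187). The count of rises was 1, 1 and 1 without regressing replicate 1, 2 and 3, and 2, 5 and 0 without progressing replicate 1, 2 and 3. Krt5 and Aire share exon positions with other genes, which makes their counts uncertain.

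Parathyroid tissue, which can lie beside or within the mouse thymus, was read from 4 tested genes. Of these 3 rose (75% called, against 12.6% of all genes). Pth, the parathyroid hormone, was at 102, 59.6 and 40.1 CPM in regressing libraries and at 0 in every progressing library, which is at least 265-fold higher against a floor of 3 counts per library. Gcm2, the factor that specifies the gland, was at 1.98, 0.988 and 0.528 CPM against 0, at least 4.59-fold higher (2.99-fold without regressing replicate 1), and its call held in none of the 6 fits. Chga, a secretory granule protein of endocrine cells, rose by a log2 fold change of 6.15 with a call held in 6 of 6. The median log2 fold change of the 4 was 6.63, or 4.17 when members at the floor take their lower bound. The list held 2 rises in every fit without 1 library.

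Thymocyte genes were read by stage. Of 27 double-positive thymocyte genes 3 rose (11.1%, where 12.6% of all genes were called and 6.45% were higher), with a median of 0.79. Of the 27, 13 were higher in every regressing library (against 21.4% of all genes). Cd28, a co-stimulatory receptor, Cd2, an adhesion receptor, and Aqp11, a water channel, rose by log2 fold changes of 2.97, 2.54 and 2.38. Cd4 was at 808, 888 and 449.8 CPM in regressing and 469.6, 255 and 161 CPM in progressing libraries, and Cd8a at 1868, 1899 and 989.7 CPM against 542, 705 and 700.3 CPM. Cd4 overlapped, since progressing replicate 1 lay above regressing replicate 3, and neither co-receptor passed the test (adjusted p = 0.0908 and 0.153). Cd3e, a signalling chain of the receptor, was at 328, 322 and 202 CPM against 167, 232 and 224 CPM, with overlap between the groups. None of 11 genes of receptor gene recombination was called. Their median log2 fold change was -0.10, with 4 members positive and 7 negative. It was 1.87 for Rag1 and 2.44 for Rag2, its partner in the recombinase (adjusted p = 0.0779 and 0.0673, edgeR). Rag2, the largest value of the list, was named after its values were seen. Dntt had a log2 fold change of 0.96 with overlap between the groups (adjusted p = 0.281, edgeR). In all, 5751 genes had an unadjusted p under 0.05. The 3 thymocyte calls became 0, 0 and 2 without regressing replicate 1, 2 and 3, and 3, 4 and 0 without progressing replicate 1, 2 and 3. In the fit of the 6 compared libraries alone, 9 of the 27 were called higher, where 9.66% of all genes were. Cd3e, Rag1 and Rag2 have exons that overlap other genes, so their counts are uncertain.

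Of 25 genes of selection and later maturation 12 rose and none fell (48% called, against 12.6% of all genes), and the median was 2.22. Cd69, induced by receptor signalling, was at 72.3, 64.4 and 41.6 CPM against 5.12, 0.676 and 0.0735 CPM without overlap, and rose by a log2 fold change of 4.89 (SE 1.03, adjusted p = 0.0199, edgeR, held in 3 of 6). Ccr7, the receptor that guides selected cells to the medulla, was at 16.6, 13.3 and 21.1 CPM against 1.42, 5.33 and 3.01 CPM (log2 fold change 2.39, held in 2 of 6). Zbtb7b, which directs the CD4 fate, rose by a log2 fold change of 2.70, Egr3, an early gene of receptor signalling, by 3.78, and Cd27, a survival receptor, by 1.84. Cd40lg, the ligand by which helper T cells license other cells, was at 5.57, 3.46 and 6.99 CPM and at or below the floor in progressing libraries, at least 21.1-fold higher (held in none of 6). The list held 2, 4 and 6 rises without regressing replicate 1, 2 and 3, and 8, 10 and 5 without progressing replicate 1, 2 and 3. Zbtb7b overlaps exons of another annotated gene, so its count is uncertain.

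In the list of Notch pathway genes and T-lymphoma drivers, 2 of 22 tested genes rose and 1 fell (13.6% called, against 12.6% of all genes). Its only fall was Notch1, the receptor that commits precursors to the T lineage and is often mutated in T-cell leukaemia, at 109.7, 122 and 99.6 CPM in regressing libraries. In progressing replicates 1, 2 and 3 it was at 517, 154 and 702 CPM, so replicate 2 lay near the regressing level. Its log2 fold change was -2.05 (SE 0.55, adjusted p = 0.0374, edgeR), and the call held in 1 of 6 fits, the one without progressing replicate 2. Ccnd2, a D-type cyclin, was at 90.5, 55.3 and 123 CPM against 4.62, 4.06 and 7.65 CPM and rose by a log2 fold change of 4.04 (SE 0.43, held in 6 of 6). Bcl11a, a transcription factor of early lymphoid and dendritic precursors, rose by a log2 fold change of 4.03 (held in 1 of 6). Myc, at 32.9, 36.8 and 64.6 CPM against 70.9, 87.8 and 35.3 CPM, overlapped between the groups. Only the Ccnd2 rise was called without regressing replicate 1, 2 or 3 or progressing replicate 1 or 3, and the fall of Notch1 was lost in each of those fits. Notch1, Ccnd2 and Bcl11a overlap exons of other annotated genes, and counts there are uncertain because use of strand is not stated.

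B-lineage transcripts were far more abundant in regressing tissue. Of 24 tested B-cell and plasma-cell genes 9 rose and 1 fell (41.7% called, against 12.6% of all genes), and the median was 2.56. In 18 all regressing libraries lay above all progressing libraries (against 21.4% of all genes). Igkc, the constant region of the kappa light chain, was at 1636, 1284 and 1761 CPM in regressing and 11.7, 26.3 and 5.15 CPM in progressing libraries. It rose by a log2 fold change of 6.76 (SE 0.99, adjusted p = 0.00924, edgeR, held in 6 of 6). Jchain, which joins the chains of secreted IgM and IgA, was at 537, 418 and 618 CPM against 5.92, 7.69 and 1.91 CPM, and Ighm, the IgM heavy chain, at 1562, 1114 and 1412 CPM against 154, 59.6 and 110.3 CPM. These 3 kept their calls in all 6 fits. The switched heavy chains Ighg2c and Ighg3 rose by log2 fold changes of 8.76 and 7.04, also in all 6.

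Ms4a1, which encodes CD20, was at 11.4, 12.99 and 16.6 CPM against 0, 0.592 and 0.147 CPM (log2 fold change 5.87, SE 1.46, held in none of 6), and Pax5, the factor that fixes B-cell identity, was at least 36.8-fold higher. Cd79a, a signalling chain of the B-cell receptor, was at 27.6, 27.2 and 49.2 CPM against 1.23, 9.72 and 3.602 CPM without overlap and did not pass the test (log2 fold change 2.85, adjusted p = 0.127). Sdc1, a proteoglycan of plasma cells that epithelial cells also carry, was the member that fell and was named after its values were seen. It was at 16.1, 14.5 and 21.9 CPM in regressing and 19.4, 103 and 135 CPM in progressing libraries (log2 fold change -2.30, held in 1 of 6), and progressing replicate 1 lay within the regressing range. Heavy-chain variable (Ighv) counts were 7835, 6160 and 11758 in regressing libraries against 71, 92 and 43 in progressing libraries. Their effective number in regressing libraries was 36.0, 18.2 and 31.1, and the leading segment differed between the 3: Ighv1-26 with 8.90%, Ighv1-18 with 18.7% and Ighv3-6 with 10.3%. The list held 3, 3 and 4 rises without regressing replicate 1, 2 and 3, and 4, 5 and 4 without progressing replicate 1, 2 and 3. Counts of immunoglobulin segments and of the related IgG constant genes are uncertain, since members share sequence. Pax5 shares exon positions with another gene, which makes its count uncertain.

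Of 21 cytotoxic and natural killer (NK) genes 11 rose (52.4% called, against 12.6% of all genes) and 3 had a negative log2 fold change. The median was 2.97 (2.53 when members at the floor take their lower bound). The summed level was 171, 137 and 209 CPM in regressing and 34.8, 175 and 54.0 CPM in progressing libraries. Progressing replicate 2 thus lay within the regressing range. Prf1 was at 4.64, 2.61 and 2.77 CPM against 5.61, 0.0845 and 1.98 CPM with overlap. It was not called (log2 fold change 0.37, adjusted p = 0.835, edgeR). Klrk1, an activating receptor, was at 12.6, 8.61 and 11.9 CPM against 0.308, 0.845 and 0.662 CPM (log2 fold change 4.18, held in 6 of 6), and Klrb1c, which encodes NK1.1, was at 4.02, 4.16 and 7.32 CPM and at least 20.4-fold higher (held in 6 of 6). Nkg7, a granule protein, rose by log2 fold changes of 5.08, and the granule protease Gzmb was at least 16.1-fold higher, each with a call held only without progressing replicate 2. The list held 2 rises without regressing replicate 1, 2 or 3 or progressing replicate 1 or 3, and 6 without progressing replicate 2. Klrb1c overlaps exons of another annotated gene, so its count is uncertain.

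Among regulatory and checkpoint genes 5 of 18 rose (27.8% called, against 12.6% of all genes), with a median of 1.12. Il2ra, the high-affinity receptor chain for interleukin-2, was at 42.1, 46.5 and 33.96 CPM against 6.47, 1.18 and 5.73 CPM (log2 fold change 3.19, held in 2 of 6). Foxp3, the master factor of regulatory T cells, was at 2.41, 2.4 and 2.57 CPM against 0.37, 0.0845 and 0.147 CPM (log2 fold change 3.52, held in 1 of 6). Pdcd1, which encodes PD-1, and Lag3, a checkpoint receptor, rose by log2 fold changes of 2.13 and 2.18 with calls held in 0 and 1 of 6. The list held 0, 0 and 1 rises without regressing replicate 1, 2 and 3, and 3, 3 and 0 without progressing replicate 1, 2 and 3. Foxp3 shares exon positions with another gene, which makes its count uncertain.

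Of 17 dendritic cell genes 6 rose (35.3% called, against 12.6% of all genes), all 17 had a positive log2 fold change, and the median was 1.88. Xcr1, the receptor of cross-presenting dendritic cells, was at 9.899, 4.94 and 10.6 CPM against 0.247, 0.507 and 0.515 CPM and rose by a log2 fold change of 4.31 (SE 0.69, held in 6 of 6). Flt3, the cytokine receptor that supports their development, rose by a log2 fold change of 2.30 (held in 0 of 6). Of 23 macrophage and monocyte genes 1 was called (4.35%, against 12.6% of all genes). It was Ly6c2, which rose, a surface protein of inflammatory monocytes that lymphocytes also carry. Csf1r, the macrophage growth factor receptor, was at 70.4, 39.5 and 80.6 CPM against 29.2, 46.8 and 11.8 CPM and C1qa, a complement subunit, at 165, 86.9 and 119 CPM against 106, 119 and 33.9 CPM. Both overlapped between the groups. None of 15 neutrophil and mast cell genes passed the test. Without regressing replicate 1, 2 or 3 or progressing replicate 3 the dendritic list held 1 rise, and without progressing replicate 1 and 2 it held 3 and 6; the monocyte list held 3 rises without progressing replicate 2. Csf1r overlaps exons of another annotated gene, so its count is uncertain.

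Interferon-response genes rose in 24 of 42 cases (57.1% called, against 12.6% of all genes), with none lower and a median of 2.02. In 28 all regressing libraries lay above all progressing libraries (against 21.4% of all genes). Interferon-stimulated genes are switched on through a short element in their promoters that interferon-activated transcription factors bind. Oasl2, an antiviral protein, was at 83.03, 51.6 and 114 CPM in regressing and 5.24, 5.92 and 2.35 CPM in progressing libraries, without overlap. It rose by a log2 fold change of 4.20 (SE 0.63, adjusted p = 0.00924, edgeR) and kept its call in 6 of 6 fits. Ifit1, which binds foreign RNA, was at 36.6, 19.98 and 41.9 CPM against 1.66, 3.72 and 0.588 CPM (log2 fold change 4.05, SE 0.77, held in 5 of 6). Isg15, a ubiquitin-like protein, was at 21.7, 11.9 and 36.1 CPM against 5.67, 9.298 and 1.84 CPM and did not pass the test (adjusted p = 0.0612). Regressing replicate 2 was the lowest of the regressing libraries in these 3 genes. Ifit1 lies in a stretch of chromosome 19 in which 8 of 9 genes that averaged 5 CPM or more were lowest of all 6 libraries in progressing replicate 3. The list held 3, 11 and 9 rises without regressing replicate 1, 2 and 3, and 18, 20 and 9 without progressing replicate 1, 2 and 3.

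Promoter sequence was at hand for 29 of the 42 genes, as 300 bases around the start (250 before, 50 after) from RefSeq on GRCm38.p6. The core of the interferon-stimulated response element, GAAANNGAAA, was searched on both strands (its reverse complement is TTTCNNTTTC), with overlapping matches counted. It occurred in 18 of the 29 genes (62.1%), against 1079 of all 27025 genes (3.99%) and 3.44% of all promoters of that length. Among genes that rose, 11 of 18 held it (61.1%), and among genes that did not pass the test 7 of 11 (63.6%). The match is a description of these letters and not of a bound site. Windows of 30 bases from 3 genes that rose and from Gbp3, which did not, are shown on the strand of the gene, with matches in capitals (a pair that overlap in Gbp3), because the same letters occur in both classes.
Ifit1, chr19:34640775-34640804, plus strand: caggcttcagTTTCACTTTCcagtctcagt
Oas3, chr5:120777715-120777744, minus strand: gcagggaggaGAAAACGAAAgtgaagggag
Igtp, chr11:58199512-58199541, plus strand: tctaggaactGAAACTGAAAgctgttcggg
Gbp3, chr3:142559989-142560018, plus strand: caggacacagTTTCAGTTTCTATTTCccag
Igtp, an interferon-inducible GTPase, was at 193, 171 and 126 CPM against 35.6, 50.4 and 73.4 CPM and rose by a log2 fold change of 1.62 (held in 4 of 6). Oas3 and Gbp3, an RNA sensor and a guanylate-binding protein, were named after their values were seen and had log2 fold changes of 3.40 and -0.01. Igtp shares exon positions with another gene, which makes its count uncertain.

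Antigen presentation was read from separate class I and class II lists. Of 22 class I genes 9 rose (40.9% called, against 12.6% of all genes), with a median of 0.80. H2-K1, a classical class I heavy chain, was at 1115, 731 and 1244 CPM against 127, 388 and 76.5 CPM (log2 fold change 2.39, SE 0.57, held in 1 of 6). Tap1, the peptide transporter subunit, was at 165, 147 and 160.2 CPM against 82.6, 76.6 and 54.03 CPM and rose by a log2 fold change of 1.15. B2m, the shared light chain, was at 1233, 868 and 1335 CPM against 575, 1019 and 391 CPM; progressing replicate 2 lay within the regressing range, and the gene was not called (adjusted p = 0.201). Class I heavy chains are near-identical copies in part, so the split of counts between them is uncertain. The class I list held 0, 0 and 1 rises without regressing replicate 1, 2 and 3, and 3, 6 and 1 without progressing replicate 1, 2 and 3. Tap1 overlaps exons of another annotated gene, so its count is uncertain.

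Of 14 class II genes 5 rose (35.7% called, against 12.6% of all genes), with a median of 1.85. Cd74, the invariant chain, was at 1291, 818 and 1094 CPM against 42.2, 269 and 70.3 CPM (log2 fold change 3.07, held in 2 of 6). H2-Aa, an alpha chain of the I-A molecule, was at 805, 494 and 699.9 CPM against 87.9, 210.1 and 64.4 CPM (log2 fold change 2.46, held in 4 of 6), and H2-DMb2, a peptide exchange factor, rose by a log2 fold change of 3.70 in all 6 fits. The list held 1, 2 and 2 rises without regressing replicate 1, 2 and 3, and 4, 6 and 1 without progressing replicate 1, 2 and 3. Class II genes are used by B cells, dendritic cells and thymic epithelium, and markers of all 3 were higher in the same libraries. Their part in the class II result was not tested. Among 26 chemokine and receptor genes 5 rose (19.2% called, against 12.6% of all genes). The median was 0.96, and 8 members had a negative log2 fold change. The rises included Cxcl9, an interferon-induced attractant of T cells (log2 fold change 3.50), and Cxcr5, the receptor that guides B cells (log2 fold change 3.88). Cxcl10 and Cxcr4 were not called (log2 fold changes 2.70 and 0.41, adjusted p = 0.0965 and 0.549, edgeR). The number of rises was 0 without regressing replicate 1, 2 or 3 or progressing replicate 3, and 3 without progressing replicate 1 or 2. Cxcl10 and Cxcr5 share exon positions with other genes, which makes their counts uncertain.

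Cell-cycle genes were lower in regressing tissue in part. Of 32 tested genes 7 fell and none rose (21.9% called, against 12.6% of all genes), and the median was -0.88. Of the 32, 18 were lower in every regressing library than in any progressing library (against 20.6% of all genes). In the fit of the 6 compared libraries alone 10 fell, where 9.72% of all genes did. Cdk1, the kinase of entry into mitosis, was at 74.5, 93.7 and 74.1 CPM in regressing and 289, 355 and 132 CPM in progressing libraries. It fell with a log2 fold change of -1.68 (SE 0.37, adjusted p = 0.0216, edgeR, held in 2 of 6). Cdc20, an activator of anaphase, was at 77.8, 92.3 and 95.2 CPM against 199, 741 and 369.7 CPM and fell with a log2 fold change of -2.30 (held in 1 of 6). Cdc20 opens the run of 10 neighbouring genes with the highest median in progressing replicate 2, at 1.87 on the log2 scale (chromosome 18 left out). The replication genes Mcm7, a helicase subunit, and Tyms, thymidylate synthase, fell with log2 fold changes of -1.33 and -1.56 (held in 1 and 0 of 6). Ccnb1, the mitotic cyclin, was at 84.9, 102 and 69.04 CPM against 165, 196 and 120.3 CPM without passing the test (adjusted p = 0.227). The count of falls was 0, 0 and 0 without regressing replicate 1, 2 and 3, and 7, 0 and 1 without progressing replicate 1, 2 and 3. Cdc20 and Mcm7 share exon positions with other genes, which makes their counts uncertain.

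Transcriptional targets of p53 were more often lower than higher in regressing tissue. Of 29 tested genes 6 fell and 1 rose (24.1% called, against 12.6% of all genes), and the median was -0.92. Zmat3, an RNA-binding protein that p53 induces, was at 18.3, 17.01 and 12.8 CPM in regressing and 139, 231 and 369 CPM in progressing libraries. All progressing libraries were higher, with a log2 fold change of -3.94 (SE 0.84, adjusted p = 0.0201, edgeR, held in 2 of 6). Bax, a pore-forming protein of apoptosis, was at 27.7, 24.6 and 28.5 CPM against 112, 179 and 182 CPM (log2 fold change -2.55, held in 2 of 6), and Ccng1, cyclin G1, at 87.6, 92.2 and 109 CPM against 266, 404 and 423 CPM (log2 fold change -1.92, held in 2 of 6). Aen, Ercc5 and Ckap2, a nuclease, a repair endonuclease and a spindle protein, also fell (log2 fold changes -1.18, -1.82 and -1.96). Dram1, which acts in autophagy, rose by a log2 fold change of 1.95 (held in 0 of 6). Bax overlaps exons of another annotated gene, so its count is uncertain.

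The best-known targets were less clear. Cdkn1a, the p21 cell-cycle inhibitor, was at 4.95, 5.51 and 25.9 CPM against 26.9, 136 and 49.03 CPM, without overlap and with an adjusted p of 0.0564. Mdm2, the p53 ubiquitin ligase, was at 157, 162 and 107 CPM in regressing libraries and at 120, 539 and 147 CPM in progressing libraries. Its progressing mean rests on replicate 2, and its log2 fold change of -0.92 became 0.12 without that library. Bbc3, the death activator PUMA, was likewise at 108 CPM in progressing replicate 2 and at 10.3 and 16.8 CPM in the other two (adjusted p = 0.1201). Pidd1, a p53-induced adaptor chosen after its values were seen, was at 30.9, 36.9 and 21.8 CPM against 106, 237 and 235 CPM and fell with a log2 fold change of -2.69 in all 6 fits. Falls in the list numbered 0, 0 and 1 without regressing replicate 1, 2 and 3, and 8, 5 and 1 without progressing replicate 1, 2 and 3, and Dram1 lost its call in each of these fits. Trp53 itself was at 127, 137 and 99.3 CPM against 49.9, 153 and 57.8 CPM and was not called (log2 fold change 0.48, adjusted p = 0.451), but passed without progressing replicate 2 (1.20, adjusted p = 0.0458). Cdkn1a shares exon positions with another gene, which makes its count uncertain.

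Survival genes of the BCL2 family shifted within the family. Bcl2, which blocks apoptosis, was at 46.4, 53.8 and 56.2 CPM in regressing and 8.94, 7.101 and 7.06 CPM in progressing libraries. It rose by a log2 fold change of 2.76 (SE 0.46, adjusted p = 0.01095, edgeR) with a call held in 6 of 6 fits. Bcl2l1, which encodes BCL-XL, rose by a log2 fold change of 1.36 (held in 1 of 6). Bcl2l11, the death activator BIM, was at 95.03, 95.2 and 64.3 CPM against 135, 449.5 and 330.4 CPM and fell with a log2 fold change of -1.85 (held in 1 of 6). Mcl1, another survival protein, was at 546, 573 and 376 CPM against 283, 167 and 124 CPM and missed the threshold (adjusted p = 0.0506). In all, 3 of 15 tested members rose and 1 fell (26.7% called, against 12.6% of all genes). Only the rise of Bcl2 was called without regressing replicate 1, 2 or 3 or progressing replicate 2 or 3. Bcl2 overlaps exons of another annotated gene, so its count is uncertain.

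Stress genes that arsenic is known to induce were called at the share of all genes. Of 24 genes of the NRF2, metallothionein and heat shock list 2 rose and 1 fell (12.5%, against 12.6% of all genes). Hmox1, the heme oxygenase that arsenic induces in many cells, was at 24.8, 24.4 and 23.5 CPM in regressing and 94.04, 106 and 41.9 CPM in progressing libraries. The groups did not overlap, but the gene was not called with edgeR (adjusted p = 0.129), and the fit of the 6 compared libraries alone gave an adjusted p of 0.0194. The metallothioneins Mt1 and Mt2, which bind heavy metals, were at 19.1, 24.9 and 94.96 and 8.72, 11.8 and 64.4 CPM in regressing libraries. In progressing libraries they were at 163, 281 and 51.7 and 159, 219.6 and 63.4 CPM, overlapping with regressing replicate 3, and neither passed the test. Nqo1, a quinone reductase under NRF2, went the other way, at 25.1, 28.2 and 17.7 CPM against 2.59, 1.78 and 0.588 CPM (log2 fold change 3.83, held in 3 of 6). Srxn1 rose by a log2 fold change of 2.41 and Gsr fell with a log2 fold change of -1.10, enzymes of peroxide and glutathione reduction with calls held in 0 and 1 of 6. The list held 0, 0 and 1 rises without regressing replicate 1, 2 and 3, and 1, 6 and 0 without progressing replicate 1, 2 and 3, and the fall of Gsr held only without progressing replicate 1. Mt2 shares exon positions with another gene, which makes its count uncertain.

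In the list of ATF4 and unfolded protein response genes 2 of 21 rose and 2 fell. Xbp1, a factor of the secretory pathway and of plasma cells, was at 181, 166 and 193 CPM against 61.7, 43.2 and 57.3 CPM and rose by a log2 fold change of 1.73 (SE 0.26, held in 6 of 6). Slc7a5, a transporter of large amino acids, was at 11.9, 14.1 and 21.96 CPM against 94.5, 46.1 and 92.6 CPM and fell with a log2 fold change of -2.28 (held in 1 of 6). Ddit3, the stress factor CHOP, was at 28.9, 27.95 and 28.5 CPM against 25.2, 18.3 and 12.1 CPM and was not called. Of 16 immediate early genes 1 was called (6.25%, against 12.6% of all genes). It was Egr1, which rose, at 84.3, 66.9 and 166 CPM against 19.8, 40.4 and 11.1 CPM (log2 fold change 2.15, held in 1 of 6). Fos was at 3.84, 3.32 and 5.74 CPM against 4.44, 74.6 and 13.7 CPM, with its peak in progressing replicate 2. The first list held 1 rise in each fit without 1 library, except 2 without progressing replicate 2, and 1 fall without progressing replicate 1 or 2 and none in the other 4 fits. The immediate early list held 1 rise and 1 fall without progressing replicate 1, 3 rises without progressing replicate 2 and no call in the other 4 fits. Ddit3 overlaps exons of another annotated gene, so its count is uncertain.

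Some matrix genes were lower in regressing tissue. Of 23 fibroblast and matrix genes 5 fell and none rose (21.7% called, against 12.6% of all genes), and the median was -1.11. Col1a1, a chain of type I collagen, was at 7.49, 4.16 and 24.6 CPM in regressing and 113, 233 and 217 CPM in progressing libraries. It fell with a log2 fold change of -3.96 (SE 0.68, adjusted p = 0.0119, edgeR, held in 5 of 6, and lost without regressing replicate 1). Col1a2 and Col3a1, further fibrillar collagens, fell with log2 fold changes of -3.31 and -3.60 (held in 5 and 4 of 6), and Fbn1, a microfibril protein, with -2.41 (held in 3 of 6). Regressing replicate 3 had the highest collagen values of its group. The falls numbered 0, 2 and 5 without regressing replicate 1, 2 and 3, and 5, 4 and 3 without progressing replicate 1, 2 and 3. None of 20 endothelial genes was called. Col3a1 and Fbn1 have exons that overlap other genes, so their counts are uncertain.

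Fat genes varied widely between the libraries of each group. Of 26 tested, 25 had a positive log2 fold change and the median was 2.80, but only 4 were higher in every regressing library than in any progressing library (against 21.4% of all genes). The summed level of 26 adipocyte genes was 710, 3456 and 30774 CPM in regressing replicates 1, 2 and 3, and 323, 3105 and 581 CPM in progressing replicates 1, 2 and 3. Ucp1, the uncoupling protein of brown fat, was at 13.9, 143 and 1194 CPM in regressing and at 0.0617, 159 and 0.0735 CPM in progressing libraries. Scd1, a fatty acid desaturase, was at 167, 1628 and 15706 CPM against 23.1, 862 and 15.4 CPM. Regressing replicate 3 and progressing replicate 2 were also the libraries of high mitochondrial share, at 8.48% and 8.83%. Regressing replicate 2, with a fat gene sum above that of progressing replicate 2, had a mitochondrial share of 2.96%. In the list 3 genes rose (11.5%, where 12.6% of all genes were called and 6.45% were higher). Among them were Lep, the satiety hormone, at 1.24, 5.79 and 48.4 CPM and at least 72.9-fold higher, and Lipe, a lipase, with a log2 fold change of 3.74. The bound for Lep was 13.9-fold when regressing replicate 3 was left out, and its call was then lost. The count of rises was 3, 0 and 0 without regressing replicate 1, 2 and 3, and 0, 13 and 0 without progressing replicate 1, 2 and 3. Lipe shares exon positions with another gene, which makes its count uncertain.

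Of 9 erythroid genes 1 was called (11.1%), of 13 imprinted genes 2 (15.4%) and of 21 glycolytic genes 2 (9.52%), all lower, where 12.6% of all genes were called. Tfrc, the transferrin receptor of erythroid and of proliferating cells, was at 85.01, 112 and 112 CPM against 561, 611 and 213 CPM and fell with a log2 fold change of -2.16 (held in 2 of 6), while the adult globin Hbb-bs was at 23.4, 62.6 and 88.4 CPM against 146, 159.7 and 51.02 CPM with overlap. H19, an imprinted RNA of fetal tissue, was at 4.39, 4.73 and 7.58 CPM in regressing libraries and at 455, 3.72 and 30.1 CPM in progressing libraries. Progressing replicate 2 lay below the regressing range and replicate 1 set the log2 fold change of -4.87, which became -1.60 at its smallest when a library was left out. Slc16a3, a lactate exporter, was at 3.28, 2.54 and 4.02 CPM against 28.2, 14.03 and 12.6 CPM and fell with a log2 fold change of -2.47 (held in 4 of 6), and Ldha, lactate dehydrogenase, was at 264, 332 and 584 CPM against 767, 872 and 821 CPM without a call. The glycolytic list held 0, 0 and 3 falls without regressing replicate 1, 2 and 3, and 2, 1 and 1 without progressing replicate 1, 2 and 3. The imprinted list held 1 fall without progressing replicate 2 and none in the other 5 fits. H19 overlaps exons of another annotated gene, so its count is uncertain.

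Over all genes, 110 rises and 22 falls of named genes reached a mean of 5 CPM in the higher group, did not overlap and held in all 6 fits. Among the largest rises, Scnn1g, a subunit of the epithelial sodium channel, was at 6.06, 6.35 and 7.39 CPM and at 0 in every progressing library, at least 26.03-fold higher. Six2, a homeobox factor, was at least 28.8-fold higher. Slc46a2, a solute carrier first described in thymic stroma, was at 39.7, 35.01 and 25.6 CPM against 0, 0.169 and 0.368 CPM, and Crip3, a LIM-domain protein, at 142, 128 and 108 CPM against 0, 1.52 and 0 CPM. Dact2, a regulator of Wnt and TGF-beta signalling, and Snhg11, a host transcript of small nucleolar RNA, rose by log2 fold changes of 7.14 and 7.02. Dact2 and Snhg11 overlap exons of other annotated genes, and counts there are uncertain because use of strand is not stated.

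Among the largest falls, Dazl, an RNA-binding protein of germ cells, was at 0.124, 0.212 and 0.198 CPM in regressing and 30.4, 26.6 and 29.99 CPM in progressing libraries, at least 137-fold lower. Tex15, a germ-cell gene required for meiosis and transposon silencing, was at 0.804, 0.918 and 0.857 CPM against 31.4, 236 and 132 CPM (log2 fold change -7.26, SE 1.00). Gml, a GPI-anchored protein, was at 0, 0 and 0.198 CPM against 5.18, 42.7 and 14.1 CPM, at least 97.6-fold lower, or 45.6-fold without progressing replicate 2. Glp1r, the receptor of glucagon-like peptide 1, was at 0.247, 0.353 and 0.132 CPM against 17.3, 12.6 and 17.9 CPM, and Lhx2, a LIM homeobox factor, at 0.681, 0.706 and 0.659 CPM against 16.4, 16.7 and 7.94 CPM. The long non-coding RNA Pvt1, a neighbour of Myc on chromosome 15, was at 3.77, 1.84 and 5.34 CPM against 34.4, 58.9 and 94.02 CPM (log2 fold change -4.09, SE 0.65), while Myc was not called. Gfra1, a GDNF receptor chain, Zfp365, a zinc-finger protein, and Cacng4, a calcium channel subunit, fell with log2 fold changes of -4.08, -3.88 and -3.75. All of these calls held in 6 of 6 fits. Pvt1 and Gfra1 share exon positions with other genes, which makes their counts uncertain.

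**Figure D4:**
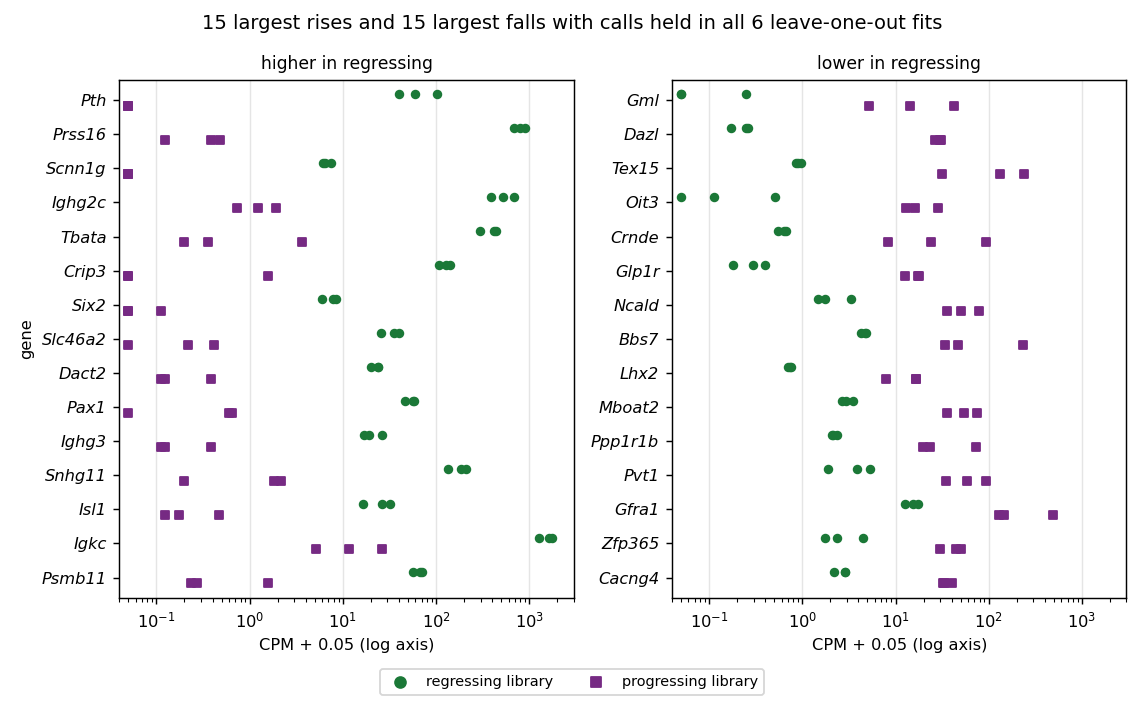
CPM plus 0.05 (x axes, log scale) in each library for the 15 named genes with the largest rises (left) and the 15 with the largest falls (right) among calls held in all 6 fits without 1 library. Green circles are regressing and purple squares progressing libraries; in none of the 30 genes do they overlap.

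Ribosomal protein genes and the Gimap family were taken up after their values were seen. Of 83 genes for cytosolic ribosomal proteins 35 fell (6.18% of all genes did), none rose and the median was -1.36. In 73 all regressing libraries lay below all progressing libraries (against 20.6% of all genes). The summed level of the 83 genes was 21759, 23046 and 26405 CPM in regressing and 57670, 84548 and 50397 CPM in progressing libraries. The direction was the same under every scaling tried, with medians of -1.13 for library totals alone and -1.21 for upper-quartile scaling, but no single call held in all 6 fits. Rplp0, a ribosomal stalk protein, was at 996, 1119.9 and 1204 CPM against 3315, 2967 and 4375 CPM (log2 fold change -1.68, held in 2 of 6). Ribosomal protein genes have many pseudogene copies, so their counts are uncertain.

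The Gimap genes, GTPases of lymphocyte survival that lie side by side on chromosome 6, rose in 6 of 8 cases (6.45% of all genes did) with a median of 3.30. Gimap3 was at 81.9, 67.5 and 132 CPM in regressing and 0.987, 1.69 and 0.956 CPM in progressing libraries (log2 fold change 6.28, SE 0.67), and Gimap8 at 159.8, 163 and 129 CPM against 5.67, 4.56 and 6.98 CPM (log2 fold change 4.71). The calls of Gimap3, Gimap4, Gimap7 and Gimap8 held in all 6 fits. The run of 10 neighbouring genes with the lowest median in progressing replicate 1 (chromosome 18 left out), at -3.43 on the log2 scale, ended at Gimap3.

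Levels relative to regressing tissue differed by chromosome in progressing libraries. Over 12088 genes that averaged 5 CPM or more, the median log2 difference of a library from the regressing mean was taken for each chromosome and centred on the library's own median. It lay between -0.11 and 0.06 on all chromosomes in regressing libraries, which enter that mean themselves. On chromosome 5 it was 0.50, -0.07 and 0.68 in progressing replicates 1, 2 and 3, and on chromosome 15 it was -0.11, 0.49 and 0.23. Progressing replicate 1 also stood out on chromosome 10 (0.48) and replicate 3 on chromosome 12 (0.43). On chromosomes 6, 7 and 17 all 3 progressing libraries were below the regressing range, by medians of -0.16 to -0.36. Called genes on chromosome 5 were lower in 108 and higher in 33 cases (17.6% of its genes), and on chromosome 6 higher in 90 and lower in 38 (19.6%), where 13.96% of the 12088 were called.

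**Figure D5:**
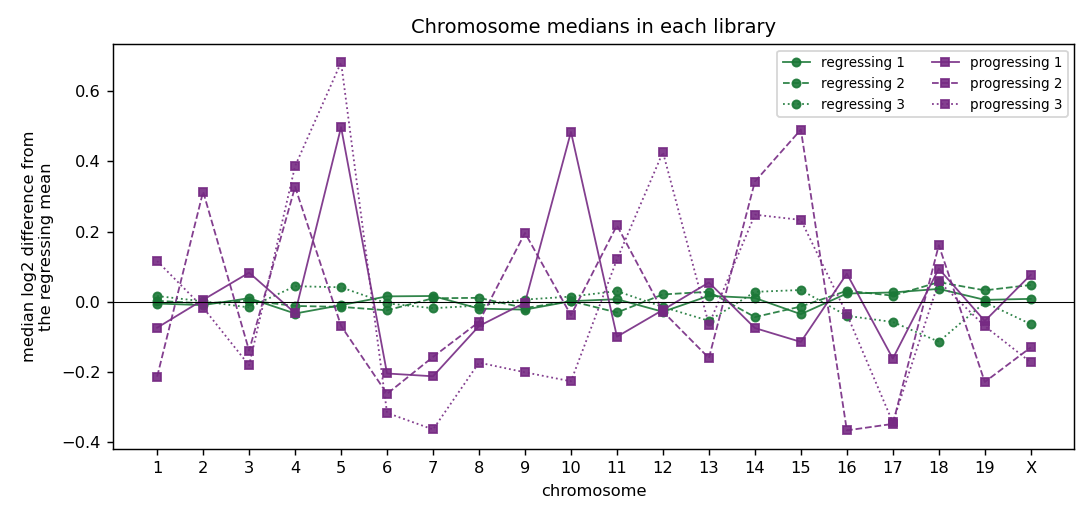
Median log2 difference from the regressing mean (y axis) for each chromosome (x axis) in each of the 6 libraries, over genes with at least 5 CPM. Regressing libraries (green), which enter that mean, stay between -0.11 and 0.06, and progressing libraries (purple) reach 0.68 on chromosome 5.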

How the data were processed

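RNA sequencing libraries of thymus tumour tissue were analysed from raw read counts per gene that the authors deposited for 52340 genes, together with the authors' FPKM values, which served only to check totals. Per the submitters' processing notes, FastQC 0.10.1, cutadapt 1.9.1 and HISAT2 2.0.1 were used with GRCm38. The counting tool, its annotation and its use of strand are not given in the sources used here. The labels' protocols name TRIzol and the SMARTer mRNA-Seq kit; the same text holds a cell culture passage that does not describe thymus. The totals implied by the deposited FPKM values exceeded the summed counts of the 6 libraries by 0.109% to 0.214%.

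Counts were fitted with edgeR 4.0.16 in R 4.3.3 (filterByExpr, TMM, glmQLFit, glmQLFTest) over 9 W/W libraries in 3 groups, where the water libraries enter the filter, the TMM scaling and the spread. P-values were adjusted by Benjamini-Hochberg over 18119 genes with a threshold of 0.05. CPM used TMM-scaled totals. Where a symbol had several gene IDs, that with the most counts was taken. On simulated counts of 17608 genes with 200 changed, the fit recovered 0% of 2-fold, 13.4% of 4-fold and 45.5% of 8-fold changes, with 0 false calls among 39. Segment indices were compared by exact permutation over libraries.

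The members and the 31 lists (658 genes, 626 tested) were chosen with earlier results of these data known. Named genes were list anchors, up to 4 of the largest and 4 of the smallest called changes in each list among members that averaged 1 CPM or more without overlap between groups, the 15 largest rises and 15 largest falls held in all 6 fits without 1 compared library, leading receptor segments, and the 10 most counted genes of a group; a part of them is printed, and results for some items are not reported here. Trp53 was named as well. Other genes outside this rule, such as Rag2, Oas3, Gbp3 and Fas, were chosen after their values were seen, also where the text does not say so. Alternatives covered the libraries fitted, scaling, filter, tool (DESeq2 1.42.0, limma 3.58.1), a fold threshold, mitochondrial genes, the replicate number as a block and each library left out.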

Additional observations from a re-analysis of the deposited data

How the results depend on the processing

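The main count of 2289 called genes became 4121 with DESeq2, 3621 with no filter on low counts and 494 when tested against a log2 fold change of 1. Leaving out 1 library gave 177 to 3825: the lowest came without regressing replicate 1, and 312, 549, 1362 and 531 without regressing replicates 2 and 3 and progressing replicates 2 and 3. The highest came without water replicate 2, which enters the filter, the scaling and the spread, and the median log2 fold change of all genes moved by 0.07. Without progressing replicate 2 and regressing replicate 3, an alternative chosen after seeing the data, 178 genes were called, 150 of them shared with the 2289. The fit of the 6 compared libraries alone called 3300, with 2190 shared. Upper-quartile scaling and library totals alone moved the median of all genes from -0.07 to 0.07 and 0.13 on the log2 scale, and the medians of the AP-1, recombination, endothelial, glycolytic, macrophage and NRF2 lists changed sign between scalings. The log2 fold change of Mdm2, -0.92, ranged from -1.27 without progressing replicate 1 to 0.12 without progressing replicate 2, and was 0.30 without that library and regressing replicate 3. Over 33 counts of list or family members, 401 of 693 alternative values lay within 1.5 times the main count. The group difference in the effective number of Trbv segments, 14.5, was 13.9 to 16.2 under the alternatives, and that in the effective number of Trav segments, 28.1, was 25.02 to 32.2; exact tests without 1 library cannot go below 0.2. The cause of these shifts was not tested.

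With the replicate number as a block, 1597 genes were called, 1520 of them shared. Deviations of same-numbered regressing and progressing libraries correlated at 0.090, -0.124 and -0.089, and the labels do not say what the number marks. The block is therefore not read as pairing, though 3 such correlations cannot exclude one. The 3 libraries a group limit what can be called. On simulated counts 2-fold changes went unrecovered, but only 200 of 17608 genes were changed there, against 2289 of 18119 called here. The recovered shares therefore do not give the rate in these data, where Tap1 was called at a log2 fold change of 1.15 and Gsr at -1.10.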

Other observations

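Inhibitors of cyclin-dependent kinases, read after their values were seen, moved in opposite directions. Cdkn2a, the locus of p16INK4a and of the p53 activator ARF, was at 5.75, 1.55 and 18.5 CPM in regressing and 135, 347 and 189.9 CPM in progressing libraries. It was lower in every regressing library, with a log2 fold change of -4.70 (SE 0.86, adjusted p = 0.0145, edgeR, held in 5 of 6 fits and lost without regressing replicate 1). Its neighbour Cdkn2b, which encodes p15INK4b, was at 1.05, 0.494 and 1.45 CPM against 3.21, 9.81 and 15.4 CPM and fell with a log2 fold change of -3.23 (held in 1 of 6). Cdkn1b, which encodes p27 and restrains resting lymphocytes, was at 442, 396 and 235 CPM against 106, 91.04 and 46.02 CPM and rose by a log2 fold change of 2.14 (held in 3 of 6).

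Some values belonged to single progressing libraries. In progressing replicate 3, genes of a stretch of chromosome 19 (GRCm38 chr19:34192229-34975745, from Stambpl1 to Kif20b, with bounds chosen after the values were seen) were low. Of the 9 genes there that averaged 5 CPM or more, 8 were lowest of the 6 libraries in that replicate, Acta2 being the exception, and their median log2 difference from the regressing mean was -4.38. The same median was -1.06 and -0.43 in progressing replicates 1 and 2. In regressing libraries, each set against the mean of the other regressing libraries, it was -0.35 to 0.23. Fas, a death receptor in the same stretch, was at 71.2, 365 and 1.98 CPM in progressing replicates 1, 2 and 3 and at 68.6, 68.05 and 43.5 CPM in regressing libraries. Medians were also taken over runs of 10 neighbouring genes, with receptor segments and chromosome 18 left out. The lowest lay elsewhere in the other progressing libraries: from Repin1 to Gimap3 on chromosome 6 in replicate 1 (-3.43) and from Trim21 to Trim30d on chromosome 7 in replicate 2 (-3.01). Of 11527 such runs, 57, 110 and 121 fell below -1.5 in progressing replicates 1, 2 and 3.

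Further lineage genes, read after their values were seen, were high in 1 or 2 libraries of a group. Fcrla, an Fc receptor-like gene of B cells, was at 6.62, 6 and 7.78 CPM in regressing libraries, at 0.925 and 0.845 CPM in progressing replicates 1 and 2 and at 75.3 CPM in replicate 3. Cd163l1, a scavenger receptor of gamma-delta T cells, was at 0.493, 148 and 58.96 CPM in progressing and 6.496, 7.98 and 4.09 CPM in regressing libraries. Blk, a kinase of B cells and innate-like T cells, was at 111, 13.98 and 19.3 CPM in regressing libraries, where replicate 1 stood apart, and at 0, 6.26 and 0.0735 CPM in progressing libraries.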
